A study of Rattus norvegicus with 180 samples.

Results

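The microRNAs (miRNAs) miR-124, miR-9 and miR-9* were followed through the organs of the male rat. These 3 were taken by name from the 717 rat miRNAs on the array, as rno-miR-124, rno-miR-9 and rno-miR-9*, and all 3 were found. Male Sprague-Dawley rats of 10 weeks were used. From 3 rats perfused with saline, numbered 4, 5 and 6, 55 organs were taken, and from 3 rats without perfusion, numbered 1, 2 and 3, liver, kidney, lung, heart atrium and heart interventricular septum were taken again, which gave 60 groups of 3 and 180 one-color miRNA arrays. 13 organs are described in detail, namely cerebral cortex, hippocampus, thalamus, cerebellum, medulla oblongata, the cervical, pectoral and lumbar spinal cord, optic nerve, ischial (sciatic) nerve, eyeball, pituitary gland and adrenal gland. The cortex, hippocampus and thalamus were cut out by eye. Each brain sample is bulk tissue and so a mixture of neurons, glia and vessels, and the eyeball is listed without parts. In such bulk samples fewer cells of a type and less RNA per cell cannot be told apart.

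miRNAs are short RNAs that are cut as 2 arms from a hairpin precursor and guide silencing proteins to messenger RNAs, mostly by pairing of the seed, bases 2 to 8. miR-124 is known as an abundant miRNA of neurons that holds down messenger RNAs of non-neuronal cells and, with the splicing regulator Ptbp1 and the REST complex among its targets, takes part in neuronal differentiation. miR-9 and miR-9* are the 5′ and the 3′ arm of the same precursors, are made in neural progenitors as well as in neurons, and have REST and its partner CoREST among their targets.

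Both arms of miR-9 are shown because the 2 are read by separate probes although they come from the same hairpins. The mature sequences are from RefSeq on build GRCr8, where they are named rno-miR-9a-5p and rno-miR-9a-3p, with the seed in capitals and the rest in lower case.
miR-9: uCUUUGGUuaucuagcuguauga
miR-9*: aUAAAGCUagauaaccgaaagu
Among the 693 mature names of that table, 1 name carries the seed of miR-9 and 1 the seed of miR-9*, so neither arm shares its seed with another entry. The 3 loci give identical arms, and the arrays therefore cannot tell which locus a signal came from. The hairpins follow with both arms in capitals. Mir9-1 lies at chr2:175974971-175975059, Mir9-2 at chr2:15933292-15933378 and Mir9-3 at chr1:142849400-142849489, all on the plus strand.
Mir9-1: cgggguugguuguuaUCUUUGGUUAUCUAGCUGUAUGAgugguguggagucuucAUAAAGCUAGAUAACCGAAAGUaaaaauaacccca
Mir9-2: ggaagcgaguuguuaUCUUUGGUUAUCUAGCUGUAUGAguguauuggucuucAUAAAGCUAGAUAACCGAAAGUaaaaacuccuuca
Mir9-3: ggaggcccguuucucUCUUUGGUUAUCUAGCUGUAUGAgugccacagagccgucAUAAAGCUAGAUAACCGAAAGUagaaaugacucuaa
The hairpins have 89, 87 and 90 bases, and the loops between the arms have 16, 14 and 16 bases. No sequence is printed for miR-124.

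Levels are given as scaled signals, that is, spot signals after the scanner's background correction, averaged over the spots of a miRNA and brought to a common level of the 37 miRNAs that were detected on all arrays. They are compared between organs for 1 miRNA, not between miRNAs, because probes differ in brightness. Detection on an array required the scanner software's flag for a signal well above background on more than 50% of a miRNA's spots. Between 86 and 244 miRNAs were detected per array, and the lowest signal of a detected miRNA ranged from 2.69 to 273 among arrays, so absence of detection means a higher limit in some organs than in others. Of the arrays of the 13 organs, 2 stood apart from the other rats of their organ. The lumbar spinal cord of rat 4 correlated with the other lumbar arrays at 0.94 and 0.96, against 0.98 between those, and the optic nerve of rat 4 at 0.94 and 0.95, against 0.99. The lumbar array of rat 4 held a summed signal of the 4 blood miRNAs (miR-451, miR-144, miR-142-3p and miR-223) of 1551, against 337 and 219 in rats 5 and 6, and the optic nerve of rat 4 held a summed signal of the 4 muscle miRNAs (miR-1, miR-133a, miR-133b and miR-206) of 4979, against 23.3 and 21.2. Differences between nervous organs that rest on these arrays are given with and without them.

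miR-124 was detected on 34 of the 180 arrays and in all 3 rats of 11 of the 55 organs. These were the 5 brain regions, the 3 levels of the spinal cord, the optic nerve, the ischial nerve and the eyeball. miR-9 was detected in all 3 rats of 16 organs and miR-9* of 19 organs, so both reached further than miR-124. The 345 miRNAs that were detected in all 3 rats of at least 1 organ had a median of 15 such organs, and 37 of them had all 55.

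**Figure D1:**
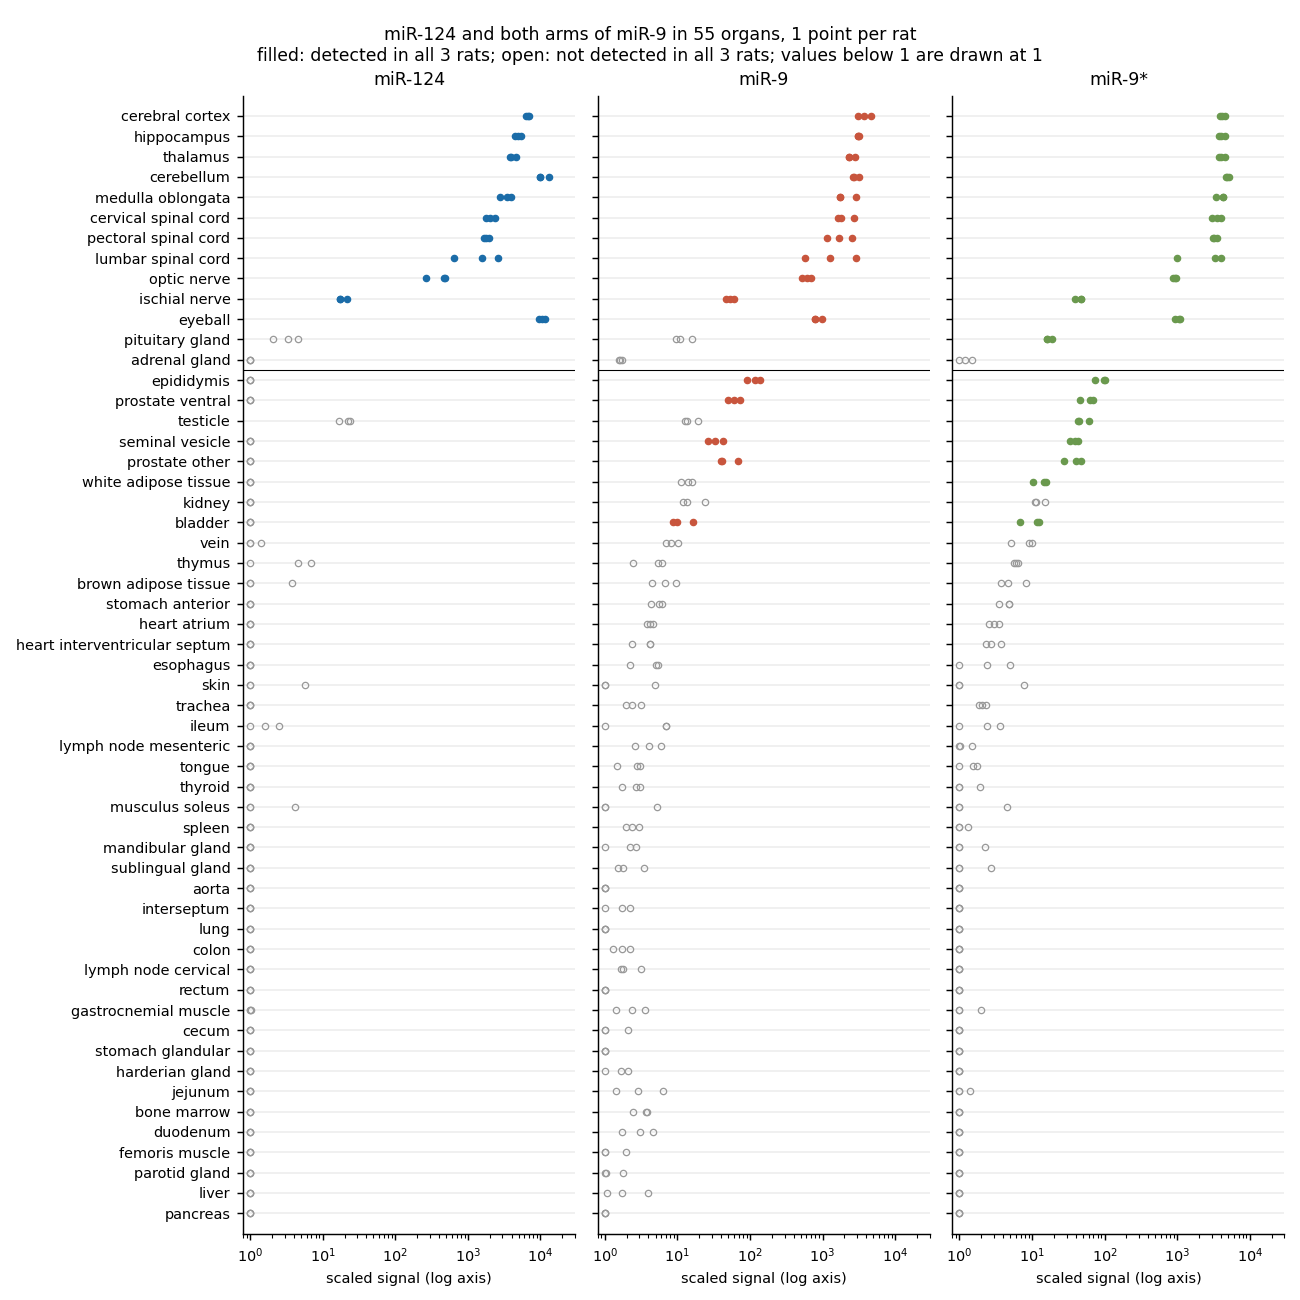
Scaled signals of miR-124, miR-9 and miR-9* on a log axis, 1 point per perfused rat, with the 13 organs described in detail above the line and the 42 others below it. miR-124 was detected in all 3 rats of none of the 42 other organs, miR-9 of 5 and miR-9* of 7.

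Under the main scaling miR-124 was highest in the cerebellum and in the eyeball. In the cerebellum rats 4, 5 and 6 gave 9756, 9981 and 13265 (mean 11000.5 ± 1964, SD, n = 3). In the eyeball they gave 10501, 11502 and 9594.5 (10532.5 ± 954, n = 3). These ranges overlap, and their order rests on the rats and the scaling, since the log2 level of the cerebellum minus that of the eyeball was 0.05, went to -0.16 when rat 6 was left out and reached 1.52 without scaling. The cerebral cortex followed at 6961, 6252 and 6709 (6641 ± 359), below every cerebellum and eyeball array and above every hippocampus array. The order of cortex and eyeball also rests on the scaling. Without scaling the eyeball exceeded the mean over the brain regions by only 0.05 on the log2 scale, while the cortex lay above that mean. The hippocampus gave 5463, 4473 and 4955 (4964 ± 495). The thalamus gave 4625, 3765 and 3953 (4114 ± 452). The medulla oblongata gave 2749, 3918 and 3452 (3373 ± 588), which made it the lowest of the brain regions under the main scaling, and neighbours from the hippocampus to the medulla overlapped. In the authors' table the thalamus was lower, with a log2 difference from the cortex of -1.20 against -1.01 for the medulla.

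Below the brain, miR-124 fell in steps through the spinal cord and the nerves. The cervical cord gave 1770.2, 2353 and 2019 (2047 ± 292, n = 3), below every medulla array. The pectoral cord gave 1672, 1794 and 1969 (1812 ± 149). The lumbar cord gave 653, 2635 and 1574 (1621 ± 992), and the 3 levels overlapped. The optic nerve gave 269, 473 and 482 (408 ± 121), below every cord array. The ischial nerve gave 21.7, 17.3 and 17.4 (18.8 ± 2.56), which is 0.312% of the mean over the brain regions, against 6.78% for the optic nerve. The pituitary gland (3.34 ± 1.27) and the adrenal gland (-0.20 ± 0.47) had no array with detection. In the testicle the signal was 23.4, 17.0 and 22.2, the highest outside the 13 organs and of the size seen in the ischial nerve. On those arrays, whose limit reached 29.4, it was not called detected, and of its 2 probes only the brighter rose above background. The skin of rat 4, at 5.80, was the 1 array of the 42 other organs with detection of miR-124.

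miR-9 was highest in the cerebral cortex under the main scaling, while the cerebellum exceeded the cortex by 0.47 on the log2 scale under the 75th percentile over all miRNAs, by 0.25 without scaling and by 0.15 in the authors' table. The cortex gave 4722, 3058 and 3768 (3849 ± 835, n = 3). The hippocampus gave 3037, 3047 and 3185 (3089.6 ± 82.7). The cerebellum gave 2725, 2650.1 and 3201 (2859 ± 299). The thalamus gave 2282, 2339 and 2768 (2463 ± 266), and the medulla 1753, 2905 and 1750.04 (2136 ± 666). Under the main scaling the highest brain region exceeded the lowest by 1.80-fold for miR-9, 3.26-fold for miR-124 and 1.23-fold for miR-9*. The 75th percentile over all miRNAs widened these spreads. Thalamus and cerebellum then stood at -1.17 and 0.47 against the cortex on the log2 scale for miR-9. For miR-124 they stood at -1.24 and 1.60, and for miR-9* at -0.57 and 1.11. From the cortex to the eyeball, each organ in the order of miR-9 overlapped with the next.

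The cord levels of miR-9 were 1651, 2747 and 1807 in the cervical (2069 ± 593), 1703, 2543 and 1168 in the pectoral (1805 ± 693) and 581, 2861 and 1267 in the lumbar part (1569.7 ± 1170). Rat 5 was the highest in the medulla and at all 3 cord levels. These 4 arrays of rat 5 shared slide 22, and they are among the 8 arrays whose labels give 2 rat numbers. The part of slide and animal in this cannot be told apart. The eyeball gave 993.6, 787 and 778 (853 ± 122), 29.6% of the mean over the brain regions, and the optic nerve 611, 526 and 695 (611 ± 84.3), 21.2% of it. The ischial nerve gave 52.4, 46.8 and 59.4 (52.9 ± 6.30), 1.84% of it.

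miR-9* was nearly level over the brain under the main scaling, but not under every other scaling. The cerebellum gave 4807, 4761 and 5130.1 (4899 ± 201, n = 3), above every cortex array. The cortex gave 4592, 4192 and 3828 (4204 ± 382). The hippocampus (4130.03 ± 437), the thalamus (4129 ± 387) and the medulla (3993 ± 504) overlapped with it. With the 75th percentile over all miRNAs the log2 difference from the cortex was 1.11 in the cerebellum and -0.57 in the thalamus. Median scaling put the medulla at -0.99 against the cortex. The cervical cord reached 3545 ± 507, the pectoral cord 3269 ± 202 and the lumbar cord 2779 ± 1599, the last with 979 in rat 4 against 4034 and 3324 in rats 5 and 6. The eyeball gave 1059, 1089 and 926 (1024 ± 86.9) and the optic nerve 862, 978 and 941 (927 ± 58.9), which overlapped. The lumbar cord overlapped with the eyeball for both arms through the array of rat 4 alone.

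**Figure D2:**
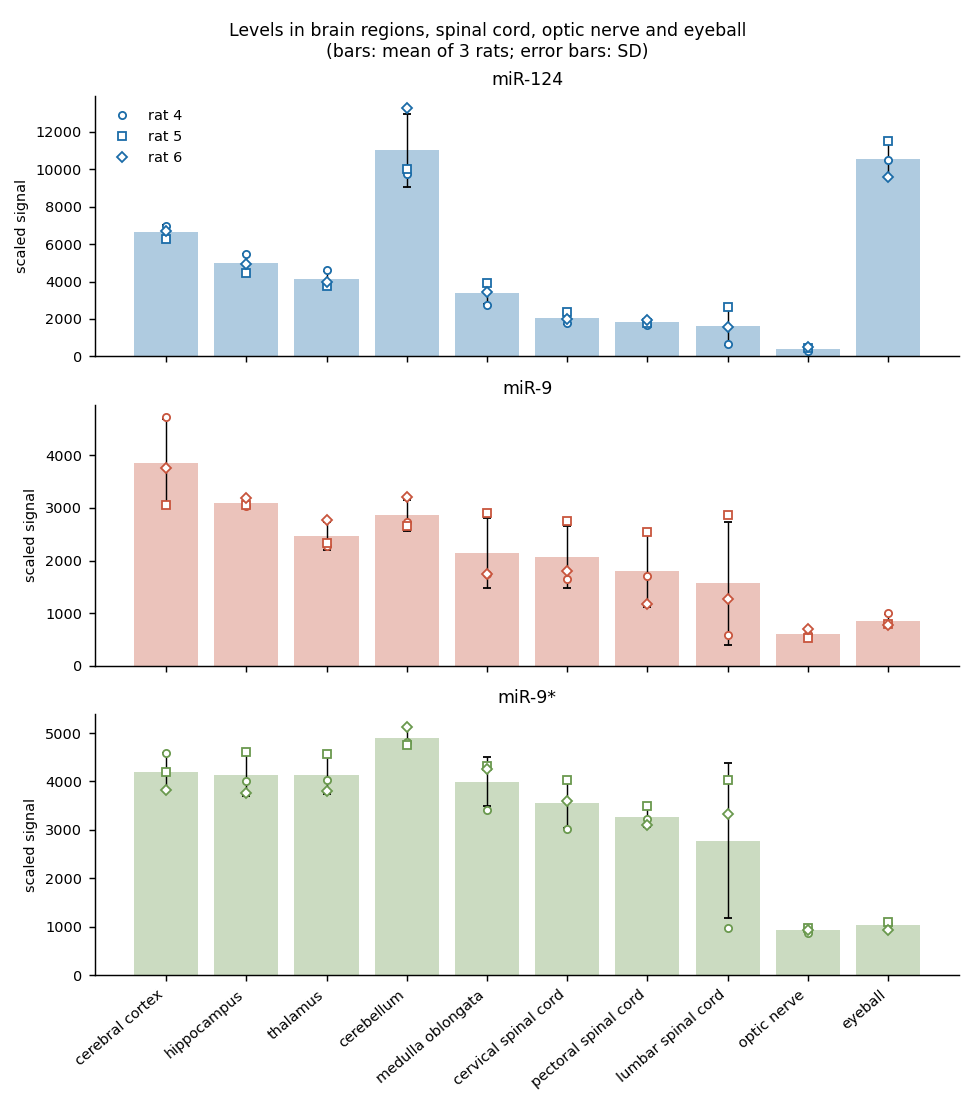
Scaled signals of the 3 miRNAs in 10 organs on a linear axis, with bars for the mean of 3 rats, error bars for the SD and 1 symbol per rat. miR-124 stands near 11000.5 in the cerebellum and 10532.5 in the eyeball, whereas miR-9 and miR-9* in the eyeball stand at 853 and 1024, below all brain regions.

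To ask how the members differ between nervous organs, the log2 scaled signals of the 13 organs (39 arrays) were fitted with limma, and p-values were adjusted by Benjamini-Hochberg over the 263 miRNAs tested. A miRNA counted as called at an adjusted p under 0.05. Values within 1 scan day are given without a test, because on scan day 3 each brain region, cord level and eyeball has 1 array, all of rat 6, and on scan day 2 the cortex, the hippocampus and the eyeball have 1 array each, of rat 5. Counts of alternative settings leave these days out. Against the cortex, no member was called in the hippocampus. The log2 differences were -0.42 (95% interval -0.99 to 0.14) for miR-124, -0.29 (-0.98 to 0.39) for miR-9 and -0.03 (-0.57 to 0.52) for miR-9*. With all 55 organs in the fit miR-124 was called at the same value (adjusted p = 0.0408), and within scan day 3 it stood at -0.44. Of all miRNAs tested, 4.18% were called in this comparison. Among them miR-128 (-1.04) and miR-132 (-1.19) of the neuron-enriched list described below were lower, and miR-338 of the oligodendrocyte and myelin list (1.02) was higher. In the thalamus, where 27.8% were called, no member was called either. miR-124 missed the threshold there at -0.69 ± 0.27 (SE, adjusted p = 0.0587), and 11 of 28 alternative settings put it past the threshold. miR-9 stood at -0.63 ± 0.33 (adjusted p = 0.169) and miR-9* at -0.03 ± 0.27. Under the 75th percentile over all miRNAs both were called, at -1.17 and -0.57, and miR-9 was called under 6 of 28 alternatives. Of the fixed lists of other tissues, miR-7a of the pituitary list (3.08) and miR-204 of the eye list (1.59) were higher in the thalamus. Of the 10 tested neuron-enriched miRNAs 3 were lower there, and 1 of the 3 tested oligodendrocyte and myelin miRNAs was higher. The part of these lists in the members' differences was not tested.

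In the cerebellum miR-124 was higher than in the cortex by 0.72 ± 0.27 on the log2 scale (1.64-fold, adjusted p = 0.0315), in a comparison that called 48.7% of all miRNAs. The call was lost under 6 of 28 alternatives, among them leaving out rat 5 (0.74, adjusted p = 0.0697) or rat 6 (0.58, adjusted p = 0.407) and quantile normalization (0.42, adjusted p = 0.306). The value within scan day 2 was 0.66 and within scan day 3 0.98. miR-9 (-0.41 ± 0.33) and miR-9* (0.22 ± 0.27) were not called. The scaling matters for this pair of organs. The 75th percentile over all miRNAs moved the differences of the 101 miRNAs detected on all 39 arrays by a median of 0.88 and put miR-9* past the threshold at 1.11, while miR-9 went to 0.47 and was not called. From a list of 15 neuron-enriched miRNAs, 13 were matched by name and 10 were tested. 9 of these were lower in the cerebellum than in the cortex, with a median of -1.73 against -0.20 over all miRNAs tested, and miR-129 stood at 0.40 (adjusted p = 0.309). Of the other fixed lists, miR-206 of muscle (2.90) and miR-204 of the eye list (2.48) were higher in the cerebellum, and miR-7a of the pituitary list (-2.09) and miR-142-3p of blood (-0.95) were lower. Their part in the difference of miR-124 was not tested. miR-598 was not matched under that name, while miR-598-3p stood at 326 ± 26.3 in the cerebellum and 164 ± 17.2 in the cortex.

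In the medulla oblongata miR-124 was lower than in the cortex (log2 difference -0.99 ± 0.27, 1.99-fold, adjusted p = 0.0068), where 24% of all miRNAs were called. Within scan day 2 the value was -0.93 and within scan day 3 -0.96, and without rat 6 it was -1.01 (adjusted p = 0.189). miR-9 stood at -0.87 ± 0.33 (adjusted p = 0.0534). With the rat as a replicate block the same difference passed the threshold (adjusted p = 0.0497). miR-9* was not called (-0.08, 95% interval -0.62 to 0.46). Median scaling put all 3 past the threshold, at -1.91 for miR-124, -1.79 for miR-9 and -0.99 for miR-9* (adjusted p = 0.0042). Of the neuron-enriched list 6 of 10 were lower in the medulla, and the 3 tested miRNAs of the oligodendrocyte and myelin list (miR-219-5p, miR-219-2-3p and miR-338) were all higher, with a median of 1.96. Of the eye list 3 of 6 were also higher (miR-204 by 1.54, miR-96 by 1.40 and miR-183 by 1.27), and miR-7a was lower (-0.88, adjusted p = 0.0467). The part of these lists in the members' differences was not tested.

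Between the spinal cord and the brain all 3 members fell, miR-124 the most. The mean of the 3 cord levels lay below that of the 5 brain regions, with log2 differences of -1.67 ± 0.14 for miR-124 (3.17-fold, adjusted p = 4.8e-11), -0.76 ± 0.17 for miR-9 (1.70-fold, adjusted p = 3.28e-04) and -0.50 ± 0.14 for miR-9* (1.41-fold, adjusted p = 0.00229). This comparison called 61.2% of all miRNAs. Within scan day 2 the 3 differences were -1.64, -0.57 and -0.60, and within scan day 3, in rat 6 alone, they were -1.63, -1.03 and -0.31. Without the lumbar array of rat 4 they were -1.48, -0.57 and -0.29, all past it, so the difference of miR-9* changed by more than 1.5 times with this array. Without rat 6 that of miR-9 was -0.63 and not called (adjusted p = 0.0693). Of the neuron-enriched list 8 of 10 tested were lower in the cord and none higher, while the 3 oligodendrocyte miRNAs were higher by a median of 1.30. The 3 tested blood miRNAs (median 1.21), 2 of 3 tested muscle miRNAs (miR-1 by 2.28 and miR-133b by 2.54) and 4 of 6 miRNAs of the eye list were also higher in the cord, miR-7a was lower (-2.004), and their part in the result was not tested. Under median scaling the 3 members stood at -2.35, -1.45 and -1.19.

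Along the cord no member was called between the lumbar and the cervical level, where 6.08% of all miRNAs were called. The differences of -0.54 for miR-124, -0.65 for miR-9 and -0.58 for miR-9* rested on rat 4, without whose lumbar array they were 0.0019, -0.08 and 0.06. Within scan day 3 that of miR-124 was -0.36. With all 55 organs in the fit the 3 differences were called (adjusted p = 0.00203, 0.014 and 0.00374), as they were without the arrays of 2 rat numbers, at -0.90, -1.01 and -0.87. Without rat 5 those of miR-124 and miR-9 were called. In that array, of the 4 oligodendrocyte miRNAs, miR-219-5p stood at 144 against 1450.2 and 877 in rats 5 and 6 and miR-219-2-3p at 106 against 1009.97 and 726, whereas miR-338 stood at 4072 against 4559.97 and 4572 and miR-338* was not detected, and miR-128, a miRNA of neurons, at 408 against 1015 and 572. Of the blood miRNAs, miR-451 (2.98) and miR-223 (1.53) were higher in the lumbar cord, and their part in this difference was not tested.

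In the eyeball the members parted. Whereas miR-124 was higher than the mean over the brain regions (log2 difference 0.94 ± 0.21, 1.92-fold, adjusted p = 2.25e-04), miR-9 (-1.72 ± 0.26, 3.30-fold, adjusted p = 7.0e-07) and miR-9* (-2.05 ± 0.21, 4.16-fold, adjusted p = 3.28e-10) were lower. Of all miRNAs 75.7% were called. Within scan day 2 the differences were 1.15, -1.75 and -1.99, and within scan day 3 they were 0.75, -1.87 and -2.16, each with 1 eyeball. The rise of miR-124 depends on the scaling. It was 0.08 (adjusted p = 0.794) when arrays were scaled by the median of the same 37 miRNAs and 0.05 (adjusted p = 0.895) without scaling, settings that moved the 101 miRNAs detected on all 39 arrays by medians of -0.87 and -0.89. All 10 tested miRNAs of the neuron-enriched list were lower in the eyeball, with a median of -2.74 against 0 over all miRNAs tested. The 3 tested oligodendrocyte miRNAs were lower as well, with a median of -4.70. All 6 miRNAs of the eye list (miR-184, miR-204, miR-211 and the cluster miR-183, miR-96 and miR-182, known from lens, pigment epithelium and photoreceptors) were detected in the eyeball and higher than in the brain, miR-184 by 10.00. The 3 tested muscle miRNAs, the 5 epithelial miRNAs, miR-223 of blood (1.51) and miR-375 of the pituitary list (1.37) were higher as well, miR-7a was lower (-1.70), and the summed muscle signal ran from 993 to 4294 among the 3 eyeballs. Their part in the members' differences was not tested.

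The ratio of miR-124 to miR-9 within an array is free of the scaling. On the log2 scale it was 3.402, 3.870 and 3.62 in the eyeball of rats 4, 5 and 6, and 0.98, 0.92 and 1.00 as the mean over the brain regions of the same rats. The groups did not overlap, and the difference of 2.66 corresponds to 6.33-fold. An exact two-sided permutation test, which took no account of the shared rats, gave p = 0.1. This is the smallest p that 3 against 3 can give. The cerebellum had the next highest ratio, with 1.84, 1.91 and 2.05, above the 12 arrays of the other brain regions.

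**Figure D3:**
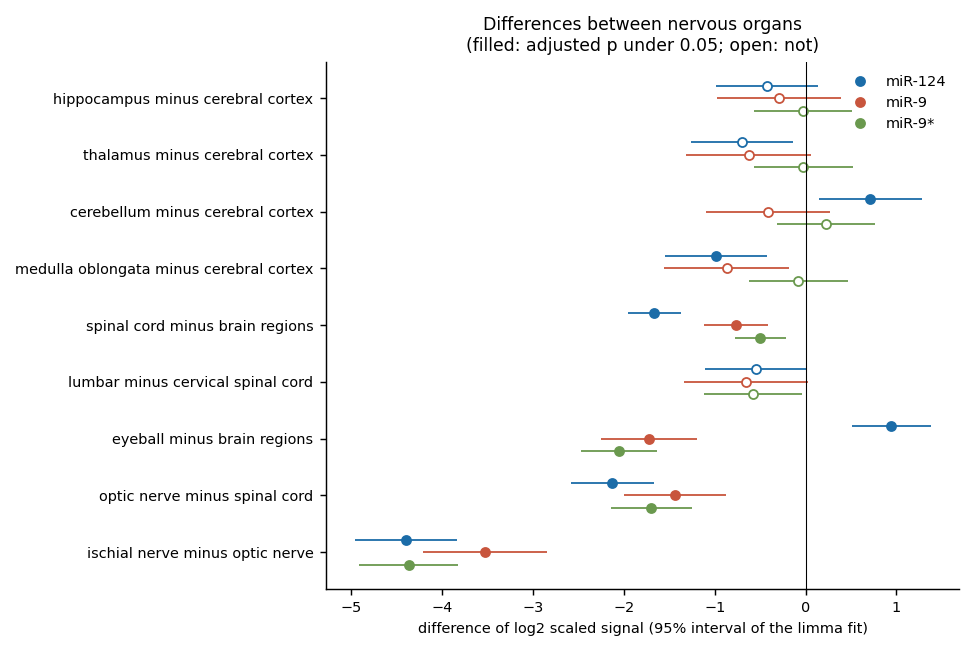
Differences of log2 scaled signals between nervous organs for miR-124, miR-9 and miR-9*, with 95% intervals of the limma fit and filled points for an adjusted p under 0.05. In the eyeball miR-124 lies at 0.94 to the right of 0, and miR-9 and miR-9* lie at -1.72 and -2.05.

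The optic nerve, a tract of axons and glia without neuronal cell bodies, was set against the spinal cord. All 3 members were lower there, with log2 differences of -2.13 ± 0.22 for miR-124 (4.37-fold, adjusted p = 2.52e-09), -1.44 ± 0.27 for miR-9 (2.71-fold, adjusted p = 4.92e-05) and -1.70 ± 0.22 for miR-9* (3.24-fold, adjusted p = 9.37e-08), and with 49.4% of all miRNAs called. Without the optic nerve of rat 4 the differences were -1.85, -1.44 and -1.65, and without the lumbar array of rat 4 they were -2.31, -1.63 and -1.91. In the authors' table they were smaller, at -1.17, -0.48 and -0.74, and still past the threshold. Within scan day 3 they were -1.95, -1.20 and -1.80. Of the neuron-enriched list 8 of 10 tested were lower in the optic nerve than in the cord. None of the 3 tested oligodendrocyte miRNAs was called, and the summed signal of the 4 on the list was 4957 in the optic nerve and 6998, 6872 and 5856 in the cervical, pectoral and lumbar cord. Of other lists, miR-451 (-2.41) and miR-133b (-2.16) were lower in the optic nerve, as were miR-183 (-2.13) and miR-96 (-2.25) of the eye list and miR-7a (-2.36) of the pituitary list, while miR-204 (1.54) and miR-211 (0.38) were higher. Their part in the members' differences was not tested.

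The ischial nerve, a peripheral nerve with Schwann cells in place of oligodendrocytes, lay far below the optic nerve. The log2 differences were -4.40 ± 0.27 for miR-124, -3.53 ± 0.33 for miR-9 and -4.37 ± 0.27 for miR-9*, and 47.1% of all miRNAs were called. All 3 were past the threshold under the 28 alternatives run, and without the optic nerve of rat 4 they were -4.68, -3.52 and -4.42. The smallest in size were -2.54 for miR-124 under normexp background correction, and -2.27 for miR-9 and -3.11 for miR-9* without scaling. In the same comparison 4 of the 10 neuron-enriched miRNAs were lower and 2 higher. Of the 3 tested oligodendrocyte and myelin miRNAs 2 were lower in the ischial nerve, where the summed signal of the list was 2615. Nearly all of this sum came from miR-338, with 2527, 2652 and 2625 in rats 4, 5 and 6. There miR-219-2-3p was detected in no rat, and miR-219-5p and miR-338* in 1 each. Of the blood list miR-451 (2.22) and miR-223 (1.32) were higher in the ischial nerve, and of the eye list miR-183 (1.44) and miR-96 (1.62) were higher and miR-204 (-1.90) and miR-211 (-0.38) lower. Their part in the members' differences was not tested.

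The pituitary gland, of which only the posterior lobe is neural tissue, was near the limit for all 3 members. miR-9* was detected in all 3 rats at 16.1, 16.0 and 18.9, miR-9 in 2 of 3 at 10.709, 16.0 and 9.71, and miR-124 in none. miR-124 was at least 760-fold lower in the pituitary than in the brain regions. This bound sets the mean of the brain arrays against the lowest signal that any miRNA called detected had on each pituitary array. It holds for that limit and not for every probe, since miR-182 was not called detected there at 14.3, 11.1 and 13.4. The fitted difference, which sets values under a higher floor of 10.8 to that floor and is smaller for this reason, was -8.98 for miR-124, -7.82 for miR-9 and -7.97 for miR-9*, with 63.5% of all miRNAs called. Of the 13 matched neuron-enriched miRNAs, 8 were detected in all 3 pituitary glands. Of the 10 tested, 6 were lower in the pituitary than in the brain, miR-128 by the most (-4.17), and 2 were higher, miR-132 by 0.99 and miR-212 by 0.63. The 2 pituitary miRNAs of the fixed lists were higher, miR-7a by 5.94 and miR-375 by 9.01, as were the 5 epithelial miRNAs (median 6.32) and 4 of 6 of the eye list, and the 3 tested oligodendrocyte miRNAs were lower (median -4.70). Their part in the members' differences was not tested. In the adrenal gland, whose medulla comes from the neural crest, no member was detected. By the same kind of bound miR-124 was at least 851-fold, miR-9 at least 435-fold and miR-9* at least 661-fold lower than in the brain regions. Between the adrenal and the pituitary gland, where 70.7% of all miRNAs were called, miR-9* differed by -0.64 ± 0.27 (adjusted p = 0.0313), but the value rests on the floor, and the call was lost under 9 of 27 alternatives.

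Against the mean of the 42 other organs, which is the pattern the 3 miRNAs are known for, the values are given as a description. In the fit of all 55 organs, with 345 miRNAs tested, the brain regions were higher by 8.96 for miR-124, 7.74 for miR-9 and 8.33 for miR-9* (log2 differences against values set to the floor), in a comparison that called 95.4% of all miRNAs. The spinal cord was higher by 7.29, 6.98 and 7.83 (85.8% called), the eyeball by 9.90, 6.02 and 6.28 (67% called), the optic nerve by 5.16, 5.54 and 6.13 (69.6% called) and the ischial nerve by 0.76, 2.01 and 1.76 (68.4% called). The ischial values turned to -0.46, -0.42 and -0.49 under normexp background correction. The same correction lowered the differences to 5.64, 4.61 and 5.17 for the brain regions and to 4.01, 3.86 and 4.68 for the spinal cord. It put the eyeball at 6.55, 2.97 and 3.20 and the optic nerve at 2.08, 2.52 and 3.05. For the pituitary gland (82% called) and the adrenal gland (74.2% called) the differences were within -0.28 to 0.36 and rest on the floor, and for miR-9 and miR-9* in the pituitary the sign changed with the scaling or the floor. Over the 41 other organs without any detection of miR-124, its level in the brain regions was higher by at least 437-fold at the median organ and by at least 28.6-fold at the organ with the highest limit. The 10 tested neuron-enriched miRNAs were all higher in the brain than in the other organs, with a median of 4.12. Of all 345 miRNAs tested, 138 were called higher and 191 lower, with a median of -0.15. The list is named for this pattern, so its values are a description too. The largest of these 10 differences was 5.70 for miR-128.

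Outside the nervous system miR-9 and miR-9* were detected in the male genital tract and the urinary tract, where miR-124, averaged over its probes, was not called detected. These organs were singled out after the values were seen, and no test was made. In the epididymis, where sperm mature, miR-9 gave 138, 91.6 and 118 (116 ± 23.1, n = 3), 4.02% of the mean over the brain regions and above every ischial nerve array, and miR-9* gave 98.7, 73.6 and 100.9 (91.1 ± 15.2), 2.13% of it. miR-9 stood at 61.8 ± 11.7 in the ventral prostate, 49.8 ± 15.8 in the rest of the prostate and 34.2 ± 8.19 in the seminal vesicle, and miR-9* at 59.7 ± 12.2, 38.04 ± 9.78 and 38.4 ± 5.10, with detection in all 3 rats. The bladder had 11.7 ± 4.27 for miR-9 and 10.3 ± 3.06 for miR-9*, both detected in 3 rats. White adipose tissue had miR-9* at 13.4 ± 2.83 in 3 of 3 rats and miR-9 in 2 of 3. In the epididymis 2 of the 13 neuron-enriched miRNAs were detected, against 10 in the cortex, and all 5 epithelial miRNAs of the fixed lists (miR-141, miR-200a, miR-200b, miR-200c and miR-429), with a summed signal of 12081. In the testicle the arms differed in detection, with miR-9* at 43.1, 44.2 and 60.1 in 3 of 3 rats and miR-9 at 12.9, 13.7 and 19.5 in none.

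Each member has 2 probe sequences with 10 spots each, and these gave like shares in the eyeball and the epididymis. The eyeball stood at 167% and 176% of the brain regions for the 2 probes of miR-124, at 29.6% and 29.7% for those of miR-9 and at 24.6% and 23.1% for those of miR-9*. The epididymis stood at 4.10% and 3.80% of the brain for the probes of miR-9 and at 2.33% and 1.85% for those of miR-9*. In the testicle only 1 of the probes of miR-124 was above background. The brighter one gave 43.3, 36.2 and 42.3 and was above background in 2 of 3 rats, the dimmer one 3.60, -2.15 and 2.17 in none. The dimmer one was also the lower in the brain regions, at 1739 against 10297. The passenger arm miR-124* was not called detected on any of the 180 arrays. Its 4 probe sequences differed. 2 of them were at background, and 1 was above background on 2 of 3 eyeball arrays and 3 of 15 brain arrays. The brightest was above background on all 15 brain arrays, all 3 eyeball arrays and 3 of 9 cord arrays. On the 126 arrays of other organs it was above background on none. This brightest probe gave 99.7 in the eyeball, 46.9 in the cerebellum, 38.0 in the cortex, 19.4 in the medulla and 6.56 in the lumbar cord. Under the main scaling its 2 highest organs were also the 2 highest of miR-124.

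The ratio of the arms asks whether miR-9 and miR-9* keep their proportion. Over the 8 organs of brain and cord, 8 pairs of arms were detected on all 24 arrays and were fitted with limma together with the ratio of miR-124 to miR-9. For miR-9 over miR-9* the cord differed from the brain by -0.27 ± 0.12 on the log2 scale (adjusted p = 0.0582, and 0.0418 with the rat or 0.0316 with the slide as a random block), with 55.6% of the ratios called, and the F test over the 8 organs gave an adjusted p of 0.0667, with 22.2% called. In these organs each slide held 1 rat, so slide and rat cannot be told apart. In rat 5 the 4 arrays of slide 22 (medulla and cord) lay between -0.57 and -0.46, in rat 4 the same organs on slide 8 between -0.96 and -0.75, and in rat 6 on slide 21 between -1.41 and -0.99. Within scan day 2 the difference between cord and brain was 0.03, and without rat 5 it was -0.49 (adjusted p = 0.0032). For miR-124 over miR-9 the cord lay below the brain (log2 difference -0.90 ± 0.12, adjusted p = 3.98e-07), with -1.07 within scan day 2 and -0.75 to -1.05 when 1 rat was left out, and the F test gave an adjusted p of 1.24e-06.

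**Figure D4:**
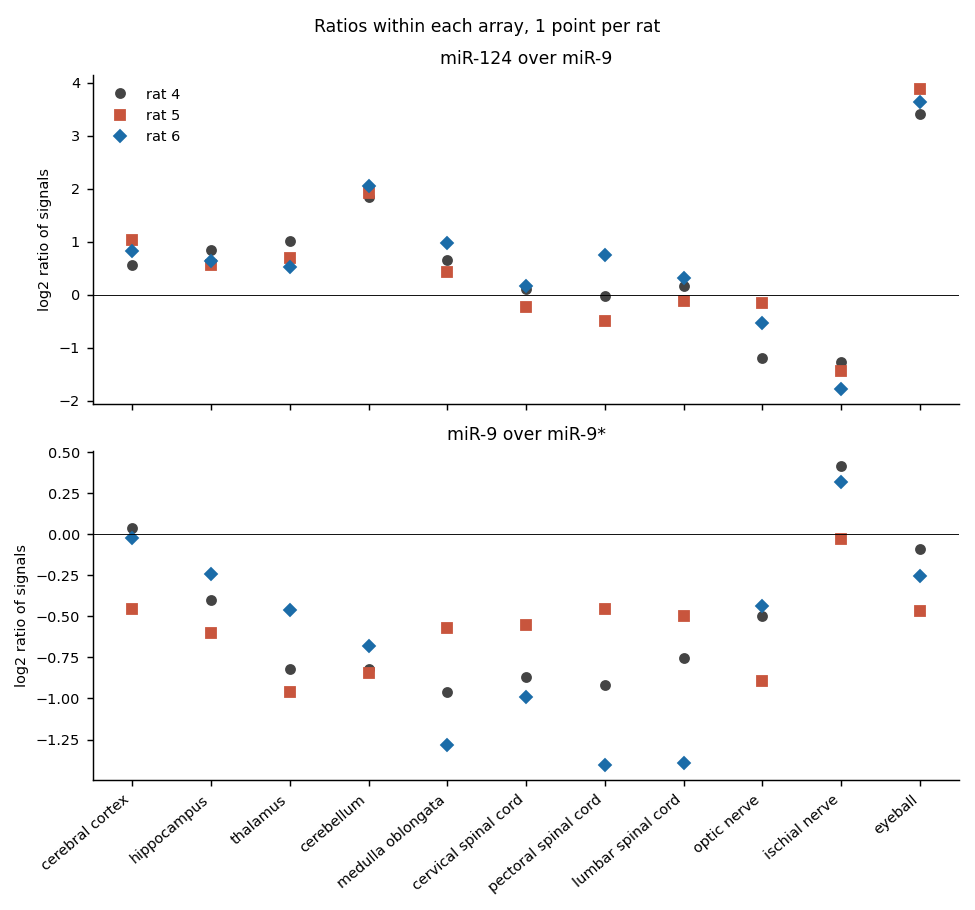
Log2 ratios of signals within each array for miR-124 over miR-9 (top) and miR-9 over miR-9* (bottom) in 11 organs, 1 symbol per rat. The eyeball lies at 3.402 to 3.870 in the upper panel, and in the lower panel the squares of rat 5 lie above the other rats in the medulla and cord and below them in the cortex.

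In all organs with both arms of miR-9 detected in 3 rats, the mean log2 ratio of miR-9 to miR-9* ran from -0.94 ± 0.36 (SD, n = 3) in the medulla to 0.38 ± 0.29 in the part of the prostate outside the ventral lobe. It was -0.15 ± 0.27 in the cortex, -0.27 ± 0.19 in the eyeball, 0.23 ± 0.24 in the ischial nerve and 0.34 ± 0.13 in the epididymis. The 3 epididymis arrays (0.48, 0.31 and 0.22) lay above all brain, cord, optic nerve and eyeball arrays. Dim spots weigh on such ratios, and no test was made.

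The miRNAs most like each member were sought by Pearson's correlation of log2 organ means over the 55 organs, among the 345 miRNAs, as a description. All organs share the scaling and the floor, and most organs of these miRNAs lie at the floor. miR-9 and miR-9* were most like each other, with 0.995 (Spearman 0.998). miR-124 was closest to miR-9* (0.964) and miR-9 (0.960), then to miR-129 (0.931), miR-129-2* (0.928) and miR-598-3p (0.925). For miR-9 and miR-9* the list went on with miR-598-3p (0.910 and 0.921) and miR-384-5p (0.909 and 0.919), and then with miR-129 (0.894) for miR-9 and miR-129-2* (0.916) for miR-9*. The rank correlation, which orders values at the floor, kept none of the 5 for miR-124 and 2 of 5 for each arm of miR-9. Of these miRNAs, 3 are shown with the seed in capitals, from the same RefSeq table, to set beside the arms of miR-9 above.
miR-129: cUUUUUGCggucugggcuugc
miR-129-2*: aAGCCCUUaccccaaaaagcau
miR-384-5p: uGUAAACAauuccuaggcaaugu
No 2 of the 5 sequences, those of miR-9 and miR-9* included, share a seed. The 4 miRNAs differed from the members in the pituitary gland, where miR-129 reached 184 against 358 in the cortex, miR-129-2* 483 against 1885, miR-384-5p 349 against 420 and miR-598-3p 67.1 against 164, and where miR-124 was not detected.

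Perfusion could be set against its absence in 5 organs. In liver, lung, heart atrium and heart interventricular septum no member was detected on any array, perfused or not. Among these signals below detection, those of miR-9 and miR-9* in the heart were lower with perfusion without overlap. miR-9 gave 4.19 ± 0.43 with and 6.15 ± 1.49 without perfusion in the atrium and 3.60 ± 1.04 and 4.97 ± 0.41 in the septum. miR-9* gave 2.99 ± 0.47 and 4.98 ± 0.41 in the atrium and 2.93 ± 0.70 and 4.64 ± 0.62 in the septum. miR-124 in the liver did not overlap either, at -3.84 ± 1.11 with and -6.70 ± 1.74 without. Each of these 5 comparisons had an exact two-sided permutation p of 0.1, and 0.3 after Benjamini-Hochberg adjustment over the 15 comparisons of member and organ. The share of all miRNAs without overlap in these organs is not given here. No effect of perfusion on the members is therefore read from these values. In the kidney miR-9 gave 16.4 ± 6.53 with perfusion and 16.7 ± 4.41 without (n = 3 each), with detection on 2 of 3 arrays in both, and an exact two-sided permutation test gave p = 0.9. miR-9* gave 12.4 ± 2.32 and 13.03 ± 1.65, with detection on 2 and 1 of 3 arrays (exact permutation p = 0.7). The smallest p such a test can give here is 0.1.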

How the data were processed

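One-color Agilent rat miRNA arrays of 180 samples were used. The authors deposited the scanner output, read with Agilent Feature Extraction 10.7.3 per the submitters' processing notes, with a background-corrected signal intensity and 0 or 1 flags per spot (values of another kind, used as given), and a table of signal intensities scaled by 1 factor per array, which served as an alternative.

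Outlier spots (1.63 to 6.42% per array) were left out, spots were averaged by probe sequence and then by miRNA, and each array was brought to the mean of the 75th percentiles, taken over the 37 miRNAs that all arrays detected. A floor of 10.8 was applied before log2. limma 3.58.1 in R 4.3.3 was used with 1 term per organ, two-sided. miRNAs detected in all 3 rats of at least 1 organ of a fit were tested. Precision is limited by 3 rats per organ. The members and lists, and the rule for named miRNAs (the members, the other arm of miR-124, the 5 most alike of each member and the fixed lists), were chosen with earlier results of these data known. Of the 15 neuron-enriched names, 2 were not matched.

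Rat numbers name animals, so they pair organs. Deviations from the organ mean correlated by 0.049 on average within a rat (0.170 for arrays that share a slide and 0.031 for those on different slides) and by -0.024 between rats. For 8 arrays the labels give 2 rat numbers, and the number in the title was used. A mean signal per spot was not found in the scanner output, so normexp used the median signal. The fits were tested on simulated data with 60 shifted miRNAs. For the cerebellum against the cortex, 28.3% of log2 shifts of 0.5 were recovered, 81.7% of shifts of 1 and 98.3% of shifts of 2. For the spinal cord against the brain regions, 81.7% of shifts of 0.5 were recovered. A difference of this size between 2 brain regions can thus remain without a call. Alternatives are given in the closing section. Scan days and slides were taken from the file headers.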

Additional observations from a re-analysis of the deposited data

How the results depend on the processing

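For the 65 results recomputed, leaving out fits within 1 scan day, 1458 of 1563 values kept their side of the threshold or moved by less than 1 SD. A change of direction counted as a change only where the value or its main value was called. Values that were not called could therefore turn in sign and still be among the 1458. An example is miR-9 in the cerebellum against the cortex, which ran from -0.58 to 0.47 without a call. The spread between 3 rats and the scaling of arrays limit the small differences between brain regions. The cause of the changes was not tested. Scaling by the 75th percentile over all miRNAs gave 1.11 for miR-9* in the cerebellum and -0.97 for miR-9 in the medulla, both against the cortex and now past the threshold. Scaling by the median gave 0.55 for miR-124 in the cerebellum and 0.0763 in the eyeball, no longer past it, and -1.79 for miR-9 and -0.99 for miR-9* in the medulla, now past it. Without scaling miR-9* in the cerebellum stood at 0.89, past the threshold, and miR-124 in the eyeball at 0.0507, not past it. The authors' table gave 0.785 for miR-9* in the cerebellum and -0.89 for miR-9 in the medulla, both past it. miR-124 in the cerebellum was not called under quantile normalization (0.42), without a filter on dim miRNAs (0.72) or with slide as a fixed term (0.69), and ran from 0.58 to 0.83 when 1 rat was left out. miR-9 in the medulla was called with all 55 organs, with only the organs of the contrast or without the lumbar array of rat 4, a setting chosen after seeing the data (-0.87 in each), with slide as a random block (-0.86) and without the arrays of 2 rat numbers (-1.11), and ran from -1.27 to -0.59 with 1 rat left out. Without 1 rat, miR-124 in the medulla ran from -1.15 to -0.82 and miR-9 in the cord against the brain from -1.13 to -0.54. Values within 1 scan day are given with no test. On scan day 3 each brain region, cord level and eyeball has 1 array, and on scan day 2 the cortex, hippocampus and eyeball have 1 each. Within scan day 2 they were 0.66, -0.93 and 1.15 for miR-124 in the cerebellum, the medulla and the eyeball, -0.57 and -0.60 for miR-9 and miR-9* in the cord and -1.75 for miR-9 in the eyeball. Within scan day 3 miR-9* in the cerebellum stood at 0.42, 1 array against 1 of the same rat. The ratio of miR-9 to miR-9* in the cord against the brain was called with rat (-0.27) or slide (-0.23) as a random block and without the arrays of 2 rat numbers (-0.41), and ran from -0.49 to -0.0357 with 1 rat left out.

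With the rat as a fixed replicate block miR-9 in the medulla passed the threshold at -0.87 (adjusted p = 0.0497), and the block changed no other call of a member. The signs that turned against the main setting in called values lay near the floor. Against the other organs, miR-9* in the pituitary was -0.26 under the 75th percentile over all miRNAs, -0.26 under quantile normalization, -0.31 in the authors' table, -0.47 under normexp and -0.0405 under a floor 4 times higher. miR-9 there was 0.43 under median scaling, 0.455 without scaling and 1.24 under a floor 4 times lower, and the ischial nerve under normexp was -0.46 for miR-124, -0.42 for miR-9 and -0.49 for miR-9*. The count of all miRNAs called ranged from 0 to 27 (11 in the main setting) for the hippocampus, from 21 to 93 (73) for the thalamus, from 75 to 144 (128) for the cerebellum, from 30 to 154 (63) for the medulla and from 2 to 79 (16) for the lumbar against the cervical cord. Detection in all rats held in 10 to 12 organs for miR-124, 12 to 20 for miR-9 and 13 to 21 for miR-9*.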
